A study of Mus musculus with 19 samples.

Results

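Voltage-gated channels for sodium, potassium and calcium set the excitability of hippocampal neurons, and 48 of their genes were followed in RNA of microdissected mouse hippocampal CA1. The genes were taken from a list of symbols, each of which was found in the annotation and matched to 1 row of the deposited count tables, so the set is 48 of 48709 rows. All 48 passed the filter on low counts and belong to the 19284 genes tested. They fall into 16 families: the pore-forming (alpha) and auxiliary (beta) subunits of sodium channels, the Kv1, Kv2, Kv3 and Kv4 potassium channels, the ether-a-go-go group (EAG, ERG and ELK), the KCNQ channels, the calcium-activated BK and SK channels, the cytoplasmic potassium channel auxiliaries, the HCN channels, the Cav1, Cav2 and Cav3 calcium channels, and the beta and alpha2delta calcium channel subunits. SK channels open with calcium and HCN channels pass a mixed cation current, and both are kept with the voltage-gated families because their pores belong to the same superfamily and act in the same neurons.

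The libraries came from mice aged 7 months and formed 3 groups. WT control (n = 6) were littermates without the transgenes, APP control (n = 6) were APPPS1-21 mice, and APP anti-miR-mix (n = 7) were APPPS1-21 mice that received inhibitors of 3 microRNAs (miR-146a-5p, miR-148a-3p and also miR-181a-5p) and are called the treated group. APPPS1-21 mice carry human APP with the Swedish mutation under Thy1 promoter sequence, which acts in neurons, and they deposit amyloid. According to the study both control groups received a scrambled oligonucleotide. Lipid nanoparticles carried it, like the inhibitors, into the dorsal hippocampus, and the surgery and the carrier are thus common to all 3 groups. In the WT titles the mixture is written next to "control", and they were read here as mice given the control oligonucleotide. The study describes its injected cohorts at this age as holding both sexes in unequal shares, and the sex behind each library is not given in the sources used here.

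A neuron fires when sodium channels clustered at the axon initial segment open, and it repolarizes through Kv channels. Kv4 and Kv1 channels restrain dendrites and axons, KCNQ and SK channels hold back repeated firing, and HCN channels work against prolonged hyperpolarization. Calcium enters through Cav1 channels at the soma and dendrites, through Cav2 channels at release sites and through low-threshold Cav3 channels, while beta and alpha2delta subunits carry the pores to the membrane. Changes in several of these channels are known from mouse models of amyloid deposition.

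The microRNAs are shown because the treatment was aimed at them and their target sites are read by a short seed. The mature sequences are those of RefSeq (GRCm38.p6), with the seed, bases 2 to 8, in capitals. All 3 seeds differ.
mmu-miR-181a-5p: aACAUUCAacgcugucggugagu
mmu-miR-146a-5p: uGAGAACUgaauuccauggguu
mmu-miR-148a-3p: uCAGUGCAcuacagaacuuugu
The injected inhibitors are reverse complements of stretches of these microRNAs, and the capitals mark the bases that pair with the seed. The inhibitor of miR-146a-5p pairs with all 7 seed bases, and the others pair with 6 of them, bases 3 to 8.
inhibitor of miR-181a-5p: actcaccgacagcgtTGAATG
inhibitor of miR-146a-5p: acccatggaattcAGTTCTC
inhibitor of miR-148a-3p: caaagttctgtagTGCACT
The control oligonucleotide holds the full 7-base site of none of the 3 seeds.
negative control for inhibitor: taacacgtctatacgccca

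Total counts ran from 19362343 to 37018917 per library. The transgenes carry Thy1 sequence, and Thy1 counts followed the labels: Thy1 ran from 18117 to 20734 normalized counts in WT control. APP control had 36153 to 62866 and the treated group 43203 to 54141. Of the 5 CA1 marker genes and the 8 general neuron markers none was at 0 in all libraries. The summed counts of 6 choroid plexus markers reached 2422 in WT control replicate 5 and 1693 in APP anti-miR-mix replicate 6, against 411 to 920 in the other libraries. WT control replicates 1 and 5 had the highest summed microglia markers of that group, 13247 and 12923. No source states that replicates came from separate cages or days, and p-values set a group difference against the spread between these animals.

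The channel genes differed widely in level. Levels between genes were compared as normalized counts per kilobase of annotated exon, with the mean and SD over the 6 WT control libraries. The order ran from Kcnab2, a Kv beta subunit, at 3889 ± 362 to Hcn4, the slow pacemaker channel, at 8.35 ± 3.17, and the median of the 48 was 482. For comparison, 45 of the 48 lay above the median of the genes tested, 91.2. Of the 47 pairs of neighbours in the order, 44 overlapped in their libraries and 3 did not: Kcnab2 above Scn2b, Cacna2d3 above Kcna1, and Kcnb2 above Hcn4.

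**Figure D1:**
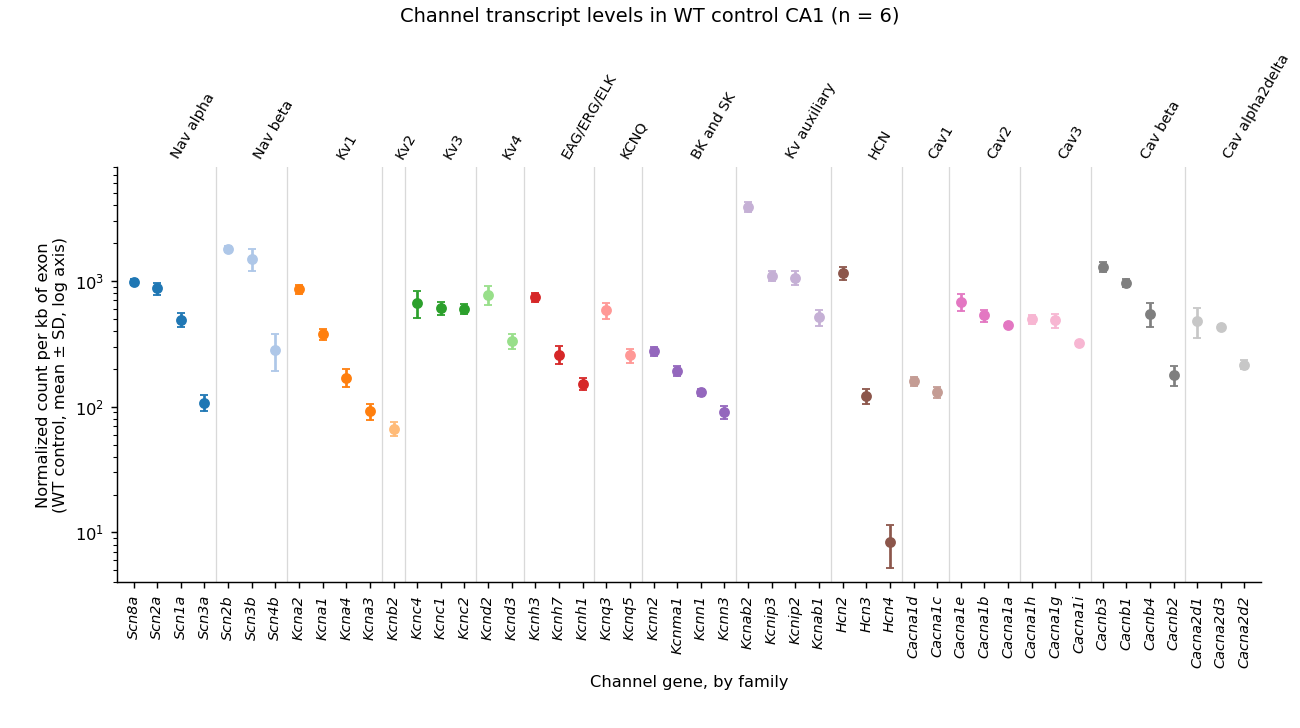
Normalized counts per kilobase of exon for the 48 channel genes in WT control (points: mean of 6 libraries, bars: SD, log axis), grouped by family. Kcnab2 stands highest at 3889 and Hcn4 lowest at 8.35.

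Among the sodium channel pores, Scn8a, the main channel of the mature axon initial segment, was highest at 981 ± 59.8 and Scn3a, a channel of the immature brain, lowest at 108 ± 15.8. The auxiliary subunit Scn2b, which links the channel to adhesion proteins, reached 1806 ± 91.6. Of the Kv families, the highest were Kcna2 of the axon (857 ± 63.8), Kcnd2, the dendritic A-type channel (777 ± 134), Kcnh3 of the ELK group (740 ± 60.4), Kcnc4 of the Kv3 channels (673 ± 166) and Kcnq3, a subunit of the M-current (584 ± 85). Kcnb2, the only Kv2 gene in the set, stood at 66.9 ± 8.73. The order Kcnc4, Kcnc1, Kcnc2 within Kv3 was not resolved beyond the spread between libraries.

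The calcium-activated channels ran from Kcnn2, the SK2 channel, at 278 ± 23.2 to Kcnn3, the SK3 channel, at 90.4 ± 10.1. Hcn2 exceeded the other HCN genes in the set, with 1156 ± 132 against 121 ± 17.0 for Hcn3. Among calcium channel pores Cacna1e, the R-type channel, was highest at 681 ± 108, followed within Cav2 by Cacna1b (533 ± 58.1) and Cacna1a (448 ± 14.9). The Cav3 genes stood between 320 ± 15.9 for Cacna1i and 496 ± 40.6 for Cacna1h, and the Cav1 genes at 159 ± 12.3 for Cacna1d and 130 ± 12.8 for Cacna1c. The auxiliary genes Cacnb3 (1294 ± 118) and Cacna2d1 (477 ± 128) led their families.

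The first comparison asked how the transgenes relate to channel transcripts. In APP control against WT control 2 of 48 channel genes passed the threshold, both lower, which is 4.17% of the set beside 1.05% of all genes tested that were called lower. None was called higher. The called genes were Kcnn2 and Scn2b, and the threshold was an adjusted p under 0.05 in DESeq2 over all genes tested. The fitted log2 fold change was below 0 for 46 of 48 channel genes, with a median of -0.13 and a range from -0.31 to 0.01. Over all genes tested the median was -0.01 and 54.4% were below 0. An unadjusted p under 0.05 was reached by 13 channel genes (27.1%), all with a fold change below 0, beside 5.54% of all genes tested with such a p and a fold change below 0. The 48 genes were chosen with earlier results of these data known, so shares of the list here and below describe it and are no test. The count of called genes moved with single libraries: it was 9 without APP control replicate 6, 4 without WT control replicate 1, 3 without APP control replicate 1, 2 without APP anti-miR-mix replicate 7 and 1 without any of the other 15, and Kcnn2 was called in every one of these fits. Without APP control replicate 6 the calls were Kcnn2, Scn2b, Scn2a, Kcna2, Kcna4, Kcnb2, Kcnc2, Kcnh7 and Kcnma1, all lower. Over all genes tested, 334 were called lower without APP control replicate 6, 306 without WT control replicate 1 and 265 without APP control replicate 1. With all libraries 202 were, and 111 to 218 in the other fits that each left out 1 library. The count of called channel genes was 6 when the adjustment number entered the fit as a factor. This is a whole number per library recovered from the authors' normalized table. The calls were then Kcnn2, Scn2a, Kcna4, Kcnc2, Kcnh7 and Kcnq3, beside 252 genes called lower in the whole table. Only WT control replicate 6 has the number 5, so this library adds nothing to the group differences of that fit. In bulk tissue, fewer cells of a type and less RNA per cell cannot be told apart.

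**Figure D2:**
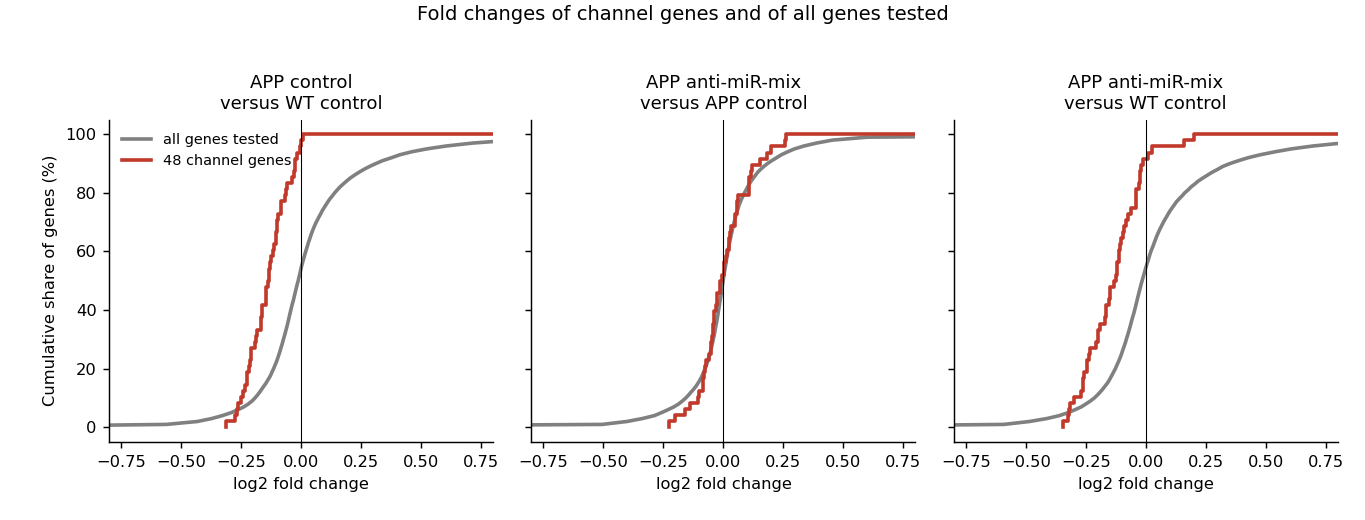
Cumulative share of genes (y axis, %) by log2 fold change (x axis) for the 48 channel genes (red) and all genes tested (grey) in the 3 comparisons. Against WT control the red curves lie left of the grey ones over most of their length, with medians of -0.13 in both, while in the treated group against APP control they run together, with a median of -0.01.

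Kcnn2 encodes SK2, the small-conductance channel that limits excitatory potentials in CA1 dendrites (ENSMUSG00000054477, chromosome 18). Its normalized counts were 1974, 1993, 1985, 2301, 1901 and 2284 in the WT control libraries. They were 1883, 1750, 1779, 1829, 1738 and 1595 in APP control. All 6 APP control libraries lay below all 6 WT control libraries. Among all genes tested, 0.368% separated this way in this direction, and Kcnn2 was the only one of the 48 that did. The log2 fold change was -0.23 ± 0.06 (SE) with an adjusted p of 0.00839 in DESeq2 and 0.0443 in edgeR. Expression fell by 15%. The exact permutation test, two-sided, gave p = 0.00216, the smallest p that 924 splits allow. Antisense transcripts overlap 4.33% and 3.80% of its exonic bases, and the TruSeq kit that the labels name does not mark strand.

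Scn2b encodes the sodium channel beta-2 subunit (ENSMUSG00000070304, chr9:45117782-45130070). In WT control its normalized counts ran from 7730 through a median of 8402 to 8984. In APP control the lowest was 6401, the median 7576 and the highest 8276. The groups overlapped, with 4 of 6 APP control libraries below the lowest WT control library. The log2 fold change was -0.16 ± 0.05 with an adjusted p of 0.0495 in DESeq2 and 0.131 in edgeR, and the exact permutation test gave p = 0.0130. The call held in 3 of 19 fits that each left out 1 library (those without WT control replicate 1, APP control replicate 1 or APP control replicate 6) and was lost in the other 16, with adjusted p up to 0.155.

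The remaining sodium channel genes had fold changes of the same sign without passing the threshold. The 4 pore genes ranged from -0.21 for Scn2a to -0.15 for Scn3a. Scn8a had 14550 to 17225 counts in WT control (median 15313) and 13173 to 15640.5 in APP control (median 13733.5). Its log2 fold change was -0.15 ± 0.05 with an adjusted p of 0.102 in DESeq2, and without APP control replicate 1, its highest library, it was -0.18 with an adjusted p of 0.0121. Scn1a, the pore of fast-spiking interneurons, had -0.21, and the beta subunits Scn3b and Scn4b had -0.19 and -0.13.

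Among the potassium channels 22 of 23 fold changes were below 0. The Kv1 genes ranged from -0.27 for Kcna4 to -0.08 for Kcna1. Kcna2 had 9286 to 11236 counts in WT control (median 10310) and 8077 to 10615 in APP control (median 8938), with a log2 fold change of -0.17 ± 0.06 and an adjusted p of 0.134 in DESeq2. Without APP control replicate 6, the value was -0.22 with an adjusted p of 0.00534. The Kv3 genes ranged from -0.22 for Kcnc2 to -0.06 for Kcnc4, whose counts were 1653 to 3288 in WT control and 2085 to 2644 in APP control (adjusted p = 0.948 in DESeq2). Kcnd2 and Kcnd3, the Kv4 pores, had -0.23 and -0.09. For Kcnd2 the counts were 3303 to 4798 in WT control and 2611 to 4335 in APP control (adjusted p = 0.401 in DESeq2). Kcnb2 had 869 to 1219 in WT control and 662 to 1402 in APP control, where 5 of 6 libraries lay below the lowest WT control library, and a log2 fold change of -0.19 ± 0.14 (adjusted p = 0.643 in DESeq2). Without APP control replicate 6, at 1402, it was -0.37 with an adjusted p of 0.00784 in DESeq2. With any other single library left out it ran from -0.23 to -0.12, without a call.

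In the ether-a-go-go group the fold changes were -0.31 for Kcnh7, the lowest of the 48, -0.10 for Kcnh3 and -0.02 for Kcnh1. Kcnh3 ran from 3815 to 4844 counts in WT control and from 3368 to 4393 in APP control (adjusted p = 0.660 in DESeq2). Of the KCNQ genes, Kcnq3 had 7096 to 9943 in WT control and 5378 to 8937 in APP control, with a log2 fold change of -0.25 ± 0.11 and an adjusted p of 0.245, which became -0.30 and 0.0258 in DESeq2 with the adjustment number as a factor. Kcnq5 had -0.17. Kcnma1, the pore of the BK channel, had -0.26 ± 0.09 with an adjusted p of 0.0772. It passed the threshold without APP control replicate 6 (-0.33, adjusted DESeq2 p of 0.00365), WT control replicate 1 (-0.31, 0.0225) or APP anti-miR-mix replicate 7 (-0.26, 0.0495). The other SK genes, Kcnn1 and Kcnn3, had -0.10 and -0.04. Of the potassium channel families the auxiliaries had the median closest to 0, with -0.13 for Kcnip3, -0.11 for Kcnab1, -0.00 for Kcnab2 and 0.01 for Kcnip2. Kcnab2 had 19137 to 25092 counts in WT control and 18725 to 25133 in APP control, so that its groups covered nearly the same range.

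For the HCN genes the fold changes were -0.27 for Hcn4, -0.14 for Hcn3 and -0.03 for Hcn2. Hcn4 rested on few counts, with 33.5 to 84 normalized counts in WT control and a 95% interval from -0.72 to 0.17, and 17.1% of the exonic bases of Hcn3 overlap Pklr. Hcn2 counts were 3225 to 4220 in WT control and 3121 to 4301 in APP control. For none of the 3 did the 95% interval leave 0.

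No calcium channel gene passed the threshold in this comparison, and 14 of 15 fold changes were below 0. Both Cav1 genes had -0.03, with Cacna1d at 1887 to 2319 counts in WT control and 1800 to 2135 in APP control. The Cav2 genes ranged from -0.16 for Cacna1e to -0.06 for Cacna1b. Cacna1e had 14467 to 21780 in WT control and 13221 to 17480 in APP control, and without WT control replicate 4 its log2 fold change was -0.08. For Cacna1a, the P/Q-type channel of release sites, 5 of 6 APP control libraries lay below the lowest WT control library, with a log2 fold change of -0.11 ± 0.04, an exact permutation p of 0.00433 and an adjusted DESeq2 p of 0.176. The Cav3 genes ranged from -0.13 for Cacna1h (4464 to 5567 in WT control, 3382 to 5091 in APP control, and -0.07 without APP control replicate 6) to -0.10 for Cacna1g and Cacna1i.

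Of the calcium channel auxiliaries, Cacnb4 had -0.22, Cacnb1 -0.12, Cacnb2 -0.07 and Cacnb3 0.00. Cacnb3 had 4815 to 6084 counts in WT control and 4319 to 5904 in APP control. The alpha2delta genes, whose products are bound by gabapentin-type drugs in the case of Cacna2d1 and Cacna2d2, had -0.21 for Cacna2d1, -0.19 for Cacna2d2 and -0.14 for Cacna2d3. Cacna2d1 had 4392 to 7768 in WT control and 3863 to 7039 in APP control, with a wide interval from -0.54 to 0.13. An antisense transcript shares 16.0% of the exonic bases of Cacnb4.

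**Figure D3:**
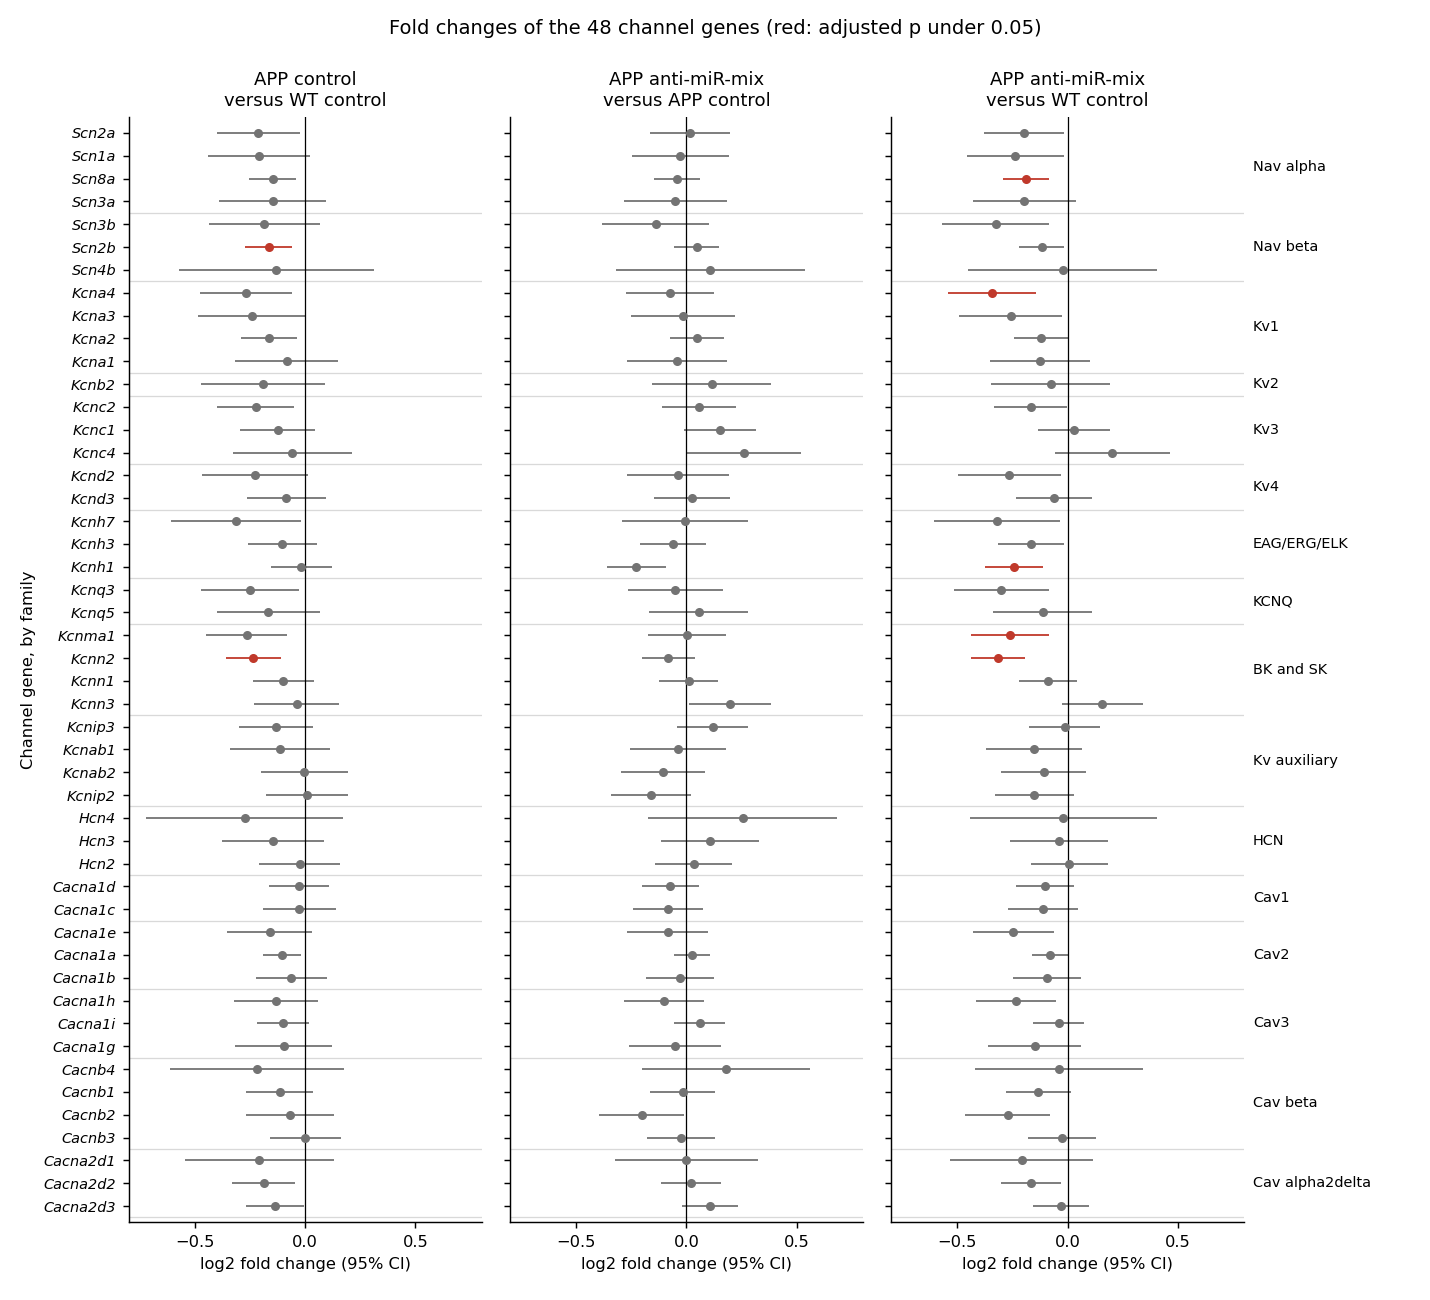
Log2 fold changes (x axis, points) with 95% intervals (lines) of the 48 channel genes, by family, in the 3 comparisons; red marks an adjusted p under 0.05. Points lie left of 0 for 46 genes in APP control against WT control and for 44 in the treated group against WT control, and are spread around 0 for the treated group against APP control.

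The second comparison asked whether the inhibitors moved channel transcripts in APPPS1-21 mice. Between the treated group and APP control 0 of 48 channel genes passed the threshold, and 0% of all genes tested did. Neither DESeq2 nor edgeR called any gene in the whole table, with 552 and 572 genes at an unadjusted p under 0.05. With only the groups compared in the DESeq2 fit 3 genes were called, and up to 3 with 1 library left out, none of them among the 48. The fold changes of the channel genes had a median of -0.01 and ranged from -0.23 to 0.26, with 25 below 0 and 23 above. For 44 of 48 the 95% interval lay within 0.5 of 0 on the log2 scale in both directions. An unadjusted p under 0.05 was reached by 4 of 48 (8.33%), beside 2.86% of all genes tested, and the 4 genes had fold changes of either sign.

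Kcnh1 encodes Kv10.1, a slowly activating channel of the ether-a-go-go type (ENSMUSG00000058248, chr1:192190774-192510159). Its normalized counts in APP control were 1195, 1103, 1209, 973, 1039 and 1112. In the treated group they were 948, 1000, 954, 927, 943, 874 and 965. All 7 treated libraries lay below the median of APP control, 6 of them below its lowest library. The log2 fold change was -0.23 ± 0.07 with an unadjusted p of 0.000839, an exact permutation p of 0.00117 and an adjusted DESeq2 p of 1.00. It therefore did not pass the threshold over the genes tested.

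The other 3 were Kcnn3, Cacnb2 and Kcnc4. Kcnn3 had a log2 fold change of 0.20 ± 0.09 and ranged from 895 to 971 in APP control (median 913) and from 903 to 1410 in the treated group (median 998). Its spread was much wider in the treated group, where replicate 7 was highest, and without that library the log2 fold change was 0.11. Cacnb2, a subunit of L-type channel complexes, had -0.20 ± 0.10, with 2080 to 2559 in APP control (median 2155) and 1765 to 2294 in the treated group (median 1887). Kcnc4 had 0.26 ± 0.13, with 2085 to 2644 in APP control (median 2334) and 2073 to 3398 in the treated group (median 2852). The groups overlapped for all 3, the unadjusted DESeq2 p were 0.0371, 0.0393 and 0.050, and the adjusted p was 1.00 for each.

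By family, the 3 Kv3 genes had fold changes of 0.06, 0.15 and 0.26 and the 3 HCN genes of 0.03, 0.11 and 0.26, all without passing the threshold. Both Cav1 genes had values below 0, -0.07 and -0.08. The sodium channel pores lay between -0.05 and 0.02. Kcnn2 and Scn2b, the genes called lower in APP control, had -0.08 ± 0.06 and 0.05 ± 0.05, with 95% intervals from -0.20 to 0.04 and from -0.06 to 0.15.

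The third comparison set the treated APPPS1-21 mice beside WT control. It shares the WT control libraries with the first comparison, which also shares the APP control libraries with the second, and the 3 are not independent. Here 5 of 48 channel genes passed the threshold, all lower, which is 10.4% of the set beside 3.37% of all genes tested that were called lower. They were Kcnn2, Scn8a, Kcnh1, Kcna4 and Kcnma1. The fold change was below 0 for 44 of 48, the median was -0.13, and the median over all genes tested was -0.02. An unadjusted p under 0.05 with a value below 0 was reached by 19 channel genes (39.6%), beside 9.18% of all genes tested. Without WT control replicate 1 the count of called genes was 8, and without WT control replicate 4 it was 3. With the adjustment number as a factor, where WT control replicate 6 adds nothing to the difference, it was 9. The whole table had 773, 364 and 707 genes called lower in these fits, against 649 with all libraries in the main fit.

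Kcnn2 had 1635, 1700, 1841, 1740, 1723, 1489 and 1532 counts in the 7 treated libraries, all below the lowest WT control library at 1901. Of all genes tested, 0.897% separated this way in this direction, and Kcnn2 was again the only one of the 48 that did. The log2 fold change was -0.32 ± 0.06 with an adjusted p of 1.88e-05 in DESeq2 and 0.00274 in edgeR. Expression fell by 19.7%. The call held in both comparisons with WT control under every alternative run, including each library left out in turn.

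Scn8a (ENSMUSG00000023033, chr15:100869858-101045938) had 12713 to 15064 counts in the treated group, median 13399.5, against 14550 to 17225 in WT control, median 15313. All 7 treated libraries lay below the WT control median and 6 of 7 below its lowest library. Its fold change, log2, was -0.19 ± 0.05 with an adjusted p of 0.00679 in DESeq2 and 0.0453 in edgeR.

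Kcnh1 had 874 to 1000 counts in the treated group, median 948, against 971 to 1289 in WT control, median 1106, and 6 of 7 treated libraries lay below the lowest WT control library. On the log2 scale this came to -0.24 ± 0.07 with an adjusted p of 0.00698 in DESeq2 and 0.0316 in edgeR. In APP control it had been -0.02 ± 0.07 from WT control. APP control ran from 973 to 1209 and WT control from 971 to 1289, and 6 of 7 treated libraries lay below the lowest library of both.

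Kcna4 encodes Kv1.4, an inactivating channel of axons (ENSMUSG00000042604, chr2:107290639-107298502). It had 590 to 715 counts in the treated group, median 647, against 655 to 1019 in WT control, median 832, and the groups overlapped. The difference on the log2 scale was -0.34 ± 0.10 with an adjusted p of 0.0126 in DESeq2 and 0.0370 in edgeR. Without WT control replicate 4, its highest library, the adjusted DESeq2 p was 0.0734, and without both libraries high in choroid plexus genes it was 0.0518.

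Kcnma1 (ENSMUSG00000063142, chr14:23289431-24014491) had 2395 to 3255 counts in the treated group, median 2758, against 2800 to 3665 in WT control, median 3264. The groups overlapped. The fitted log2 difference was -0.26 ± 0.09 with an adjusted p of 0.0400 in DESeq2 and 0.0765 in edgeR, and 5.99% of its exonic bases are shared with an antisense transcript. The call was lost in 10 of 19 fits that each left out 1 library, with adjusted p up to 0.145. These were the fits without WT control replicate 2, 3, 4, 5 or 6 or without APP anti-miR-mix replicate 1, 3, 4, 5 or 6. It was also lost without both libraries high in choroid plexus genes, with an adjusted DESeq2 p of 0.120.

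The genes with the highest level of each family, other than those called, were closer to WT control in some families than in others. In the treated group the potassium channel genes Kcna2, Kcnb2, Kcnc4, Kcnd2 and Kcnh3 had medians of 9511, 909, 2852, 3516 and 3838, with fold changes from WT control of -0.12, -0.08, 0.20, -0.26 and -0.17. Kcnq3 ran from 5866 to 8081 there, with a log2 fold change of -0.30 ± 0.11 and an adjusted p of 0.0598 in DESeq2. It passed the threshold with the adjustment number as a factor (adjusted p = 0.00871), with only the groups compared in the fit (0.0277), and without WT control replicate 1, 2 or 3, APP control replicate 2 or 6, or APP anti-miR-mix replicate 4. Kcnab2 ran from 14721 to 23763, with -0.11 ± 0.10, and Hcn2 from 3023 to 4151, with 0.01 ± 0.09. None of these genes passed the threshold with all libraries in the 3-group fit.

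Of the calcium channel genes, Cacna1e ran from 13290 to 17228 in the treated group, with a log2 fold change of -0.25 ± 0.09 and an adjusted p of 0.0785 in DESeq2. Without WT control replicate 1 this became 0.0258, without APP anti-miR-mix replicate 7 0.0241, and without both WT control libraries high in glial genes 0.0374. Cacna1h ran from 3364 to 4655, with -0.23 ± 0.09 and 0.0964, or 0.0356 without APP control replicate 6. The remaining leaders of their families lay nearer to 0 or varied more, with -0.10 for Cacna1d, -0.02 for Cacnb3 and -0.21 ± 0.17 for Cacna2d1. Cacnb2 had -0.27 ± 0.10 with an adjusted p of 0.0591, and passed the threshold without WT control replicate 1 (0.0325), WT control replicate 3 (0.0127) or APP anti-miR-mix replicate 4 (0.0258). With all libraries, all 15 calcium channel genes had a fold change below 0 without a call. Scn2b had -0.12 ± 0.05 with an adjusted p of 0.150 in DESeq2, or 0.0410 without APP control replicate 5. Scn3b, another auxiliary subunit of sodium channels, had -0.33 ± 0.12 with an adjusted p of 0.0747, and passed the threshold with the adjustment number as a factor (0.0357) and without WT control replicate 3, APP control replicate 2 or APP anti-miR-mix replicate 3 or 4.

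**Figure D4:**
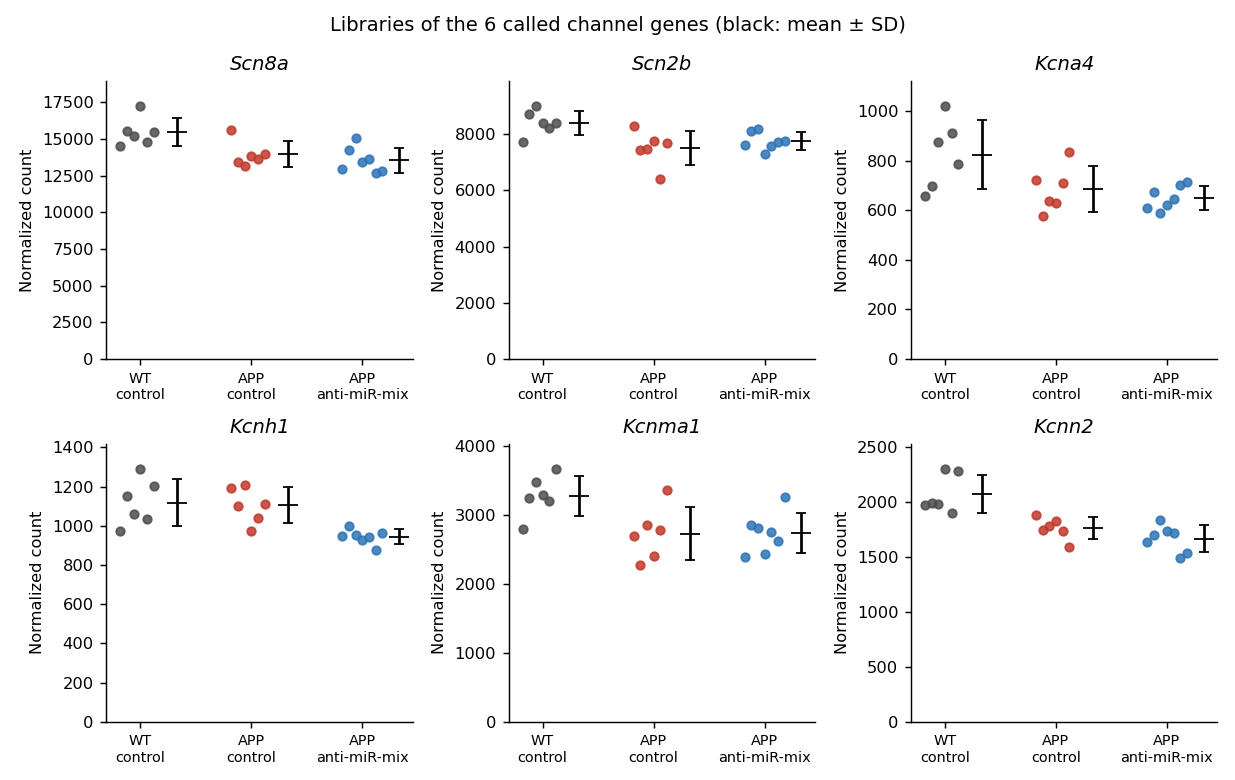
Normalized counts per library (y axis, from 0) of the 6 channel genes called in any comparison, by group, with the mean and SD in black. For Kcnn2 no library of either APP group reaches the lowest WT control library at 1901, while for Kcnh1 APP control lies within the WT control range, 971 to 1289, and 6 of 7 treated libraries lie below it.

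Across families, the third comparison had its lowest median in the ether-a-go-go group, -0.24, followed by KCNQ at -0.21 and the sodium channel pores at -0.20. Kv3 and HCN had medians of 0.03 and -0.02. In the first comparison the lowest family medians were -0.21 for KCNQ, -0.20 for Kv1 and -0.19 for the alpha2delta subunits and for Kcnb2, and the highest was -0.03 for Cav1. No difference between families was tested.

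The lower levels were spread over libraries of both APP groups. Each library was given the median, over the 48 genes, of log2(normalized count + 1) relative to the WT control mean. It ran from -0.09 to 0.07 in WT control, with an SD of 0.06. APP control ran from -0.18 to -0.05 and the treated group from -0.22 to -0.08. WT control replicate 1, at -0.09, lay within the range of the APP groups, and APP control replicates 1 and 6 and APP anti-miR-mix replicate 7 lay above it. The corresponding medians over all genes tested stayed between -0.01 and 0.02 in every library.

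**Figure D5:**
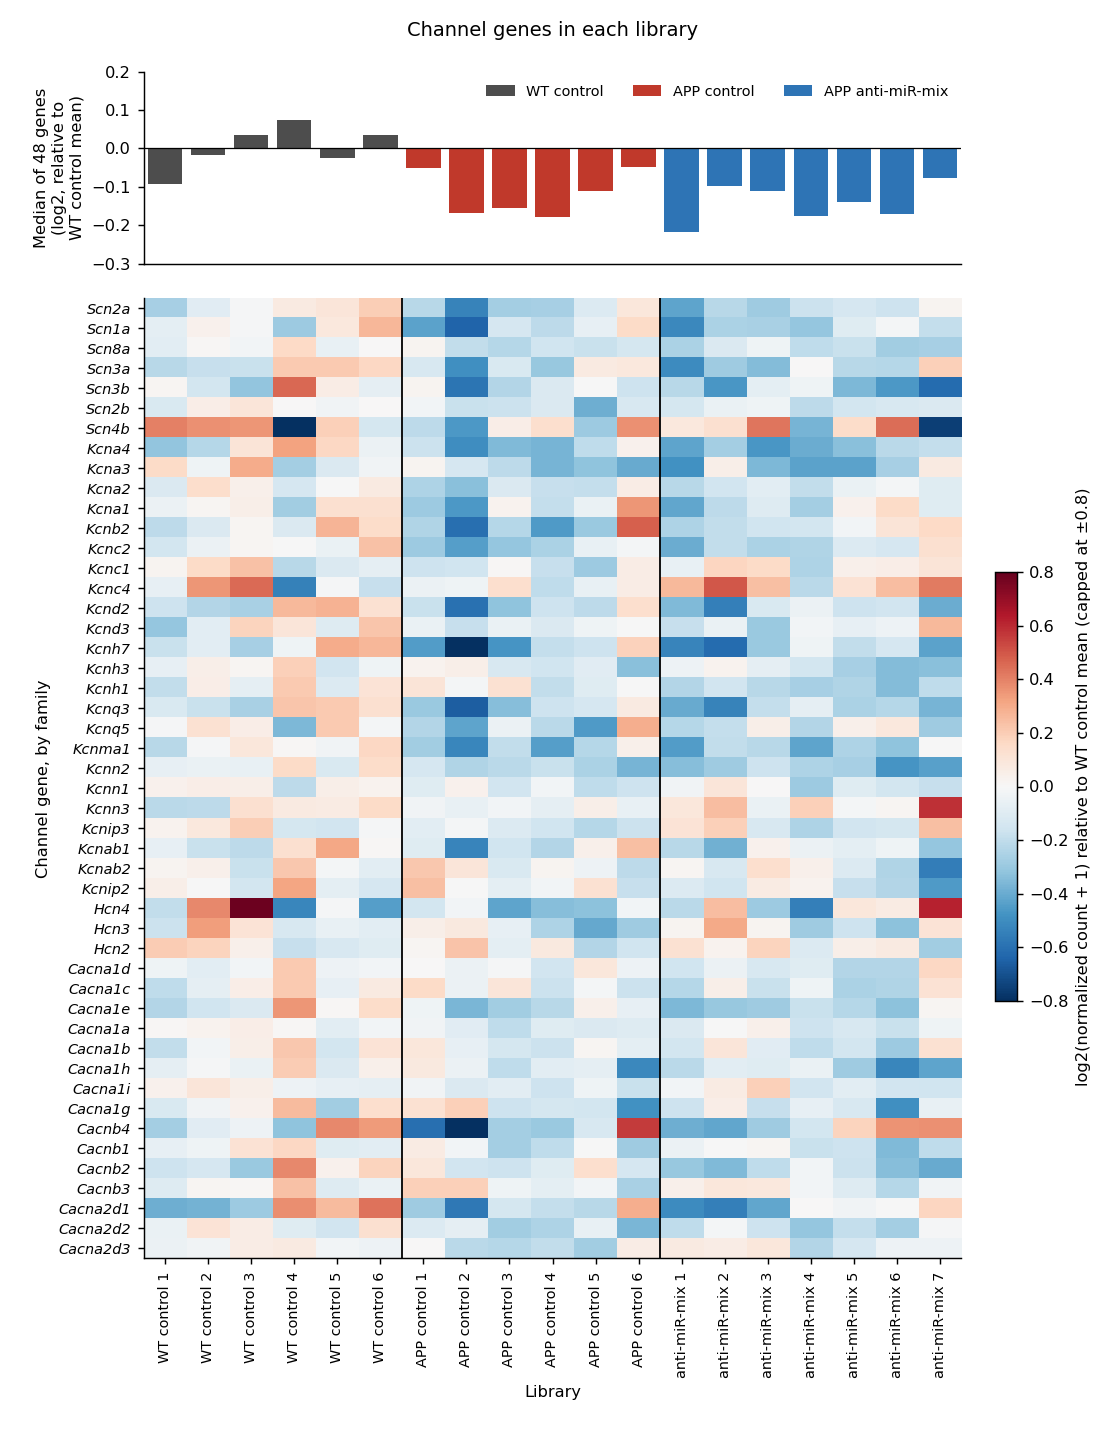
Upper panel: median over the 48 channel genes in each library, on the log2 scale relative to the WT control mean. Lower panel: the same scale for each gene (rows) and library (columns), with blue below and red above the WT control mean. All 13 bars of the APP groups lie below 0, from -0.22 to -0.05.

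Markers of other cells moved between the same groups. Against WT control, 3.66% of all genes tested were called higher and 1.05% lower in APP control. In the treated group these shares were 5.59% and 3.37%. In APP control 3 of 5 microglia markers were called higher, with summed counts of 8639 to 13247 in WT control and 12650 to 25546 in APP control. Gfap, 1 of 5 astrocyte markers, was called higher, and the summed astrocyte markers ran from 47793 to 68592 and from 69048 to 112640. The 8 neuron markers had a median log2 fold change of -0.12, with none called and summed counts of 196372 to 240149 against 182345 to 219174. Of the 4 inhibitory neuron markers Gad1 and Gad2 were called lower, and of 6 immediate early genes 5 were, with non-overlapping sums of 10825 to 17702 and 7390 to 9762. In the treated group the corresponding sums were 16579 to 25004 for microglia, 69083 to 107555 for astrocytes, 187663 to 219595 for neurons and 5727 to 11012 for immediate early genes. There 4 of 5 microglia markers and again Gfap were called higher, and all 6 immediate early genes and Gad1 (-0.23) were called lower. The 4 inhibitory neuron markers summed to 30878 to 35982 in WT control, 27337 to 31305 in APP control and 27287 to 34590 in the treated group. Markers of neighbouring regions and vessels differed too. Prkcd, a thalamus marker, was called higher in APP control and in the treated group, with log2 fold changes of 0.62 and 0.60 from WT control, and Lef1 in the treated group with 0.77. The other thalamus markers were not called, and the 7 together ran from 1743 to 2610 in WT control, 2000 to 2521 in APP control and 2047 to 2644 in the treated group. The endothelial Flt1, 1 of 4 markers, was called higher in both, with 0.30 and 0.40. Tac1, 1 of 4 fast-spiking interneuron markers, was called lower in APP control (-0.35), and Fezf2, 1 of 5 cortex markers, in the treated group (-0.44). None of the 5 CA1 markers was called. The part of these differences in the channel results was not tested.

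The 48 genes are long, with a median genomic span of 138 kb against 18.8 kb for all genes tested, and a range from 1.90 kb for Kcna3 to 817 kb for Cacna2d3. In APP control against WT control the 24 longer channel genes had a median log2 fold change of -0.16, with 24 below 0. The 24 shorter ones had -0.13, with 22 below 0. Of all genes tested, the 1611 with a span above the median of the channel genes had a median of -0.08, with 72.3% below 0.

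Other genes of the same pathway were followed beside the 48. Of 62 further channel genes 52 were tested, and against WT control 2 of them were called lower in APP control and 6 in the treated group, with medians of -0.07 and -0.10 and none called higher. Of all genes tested, 1.05% and 3.37% were called lower in these comparisons. The fold changes of 35 of the 52 were below 0 in APP control and of 34 in the treated group. Kcnf1, a silent potassium channel subunit, was called lower in both by DESeq2, with log2 fold changes of -0.34 and -0.35. In edgeR its adjusted p was 0.106 and 0.0539. Dpp6, an auxiliary of Kv4 channels, had -0.26 in the treated group against WT control. Cacng8, listed here by its symbol with the calcium channel gamma subunits, had -0.38, with an adjusted p of 0.0700 in edgeR.

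Of 29 inward rectifier and K2P potassium channel genes 23 were tested, and 2 were called higher in both APP groups, beside 3.66% of all genes tested called higher in APP control and 5.59% in the treated group. Kcnj2, an inward rectifier, had 186 to 420 counts in WT control and 350 to 786 in APP control, a log2 fold change of 1.08 (adjusted p = 4.24e-06 in DESeq2). In the treated group it had 456 to 819, and 1.36. Kcnk6, a K2P channel, had 125 to 188, 188 to 316 and 217 to 297 in WT control, APP control and the treated group, with 0.79 and 0.78. Kcnj6, a G-protein-gated rectifier of neurons, was called lower in the treated group by DESeq2, with -0.37 and an adjusted p of 0.0534 in edgeR.

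Of 16 genes that cluster channels at the axon initial segment and node, 2 were called lower in APP control and 4 in the treated group, each against WT control and beside the same 1.05% and 3.37% of all genes tested. Ank3, the ankyrin-G scaffold that anchors sodium and KCNQ channels, had 14614 to 16156 counts in WT control and 12587 to 14495 in APP control. These groups did not overlap, and 0.368% of all genes tested separated this way in this direction. Its log2 fold change was -0.18 (adjusted p = 0.00474 in DESeq2). Nrcam, an adhesion protein of the initial segment, had -0.22 (adjusted p = 0.00428 in DESeq2). In the treated group these had -0.21 and -0.24, and Cntnap2, which holds Kv1 channels beside the node, had -0.28 (adjusted p = 0.00785 in DESeq2). Of the other called genes of the lists, Kcnh8 and Sptan1 were called lower by DESeq2 between the treated group and WT control. Their adjusted p in edgeR were 0.0658 and 0.133. None of the tested genes on these lists was called between the APP groups.

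Matches to the microRNA seeds were counted in the longest annotated 3′ UTR of each gene, on the transcript strand only. The searched letters were TGAATGT for miR-181a-5p, AGTTCTC for miR-146a-5p and TGCACTG for miR-148a-3p. At least 1 match was present in 24 of 48 channel genes (50.0%), beside 34.7% of 15369 tested genes with a UTR. Their UTRs were longer, with a median of 2352 bases against 1147, and the matches per kilobase were 0.264 against 0.335. By microRNA, 16 genes held a site for miR-181a-5p (33.3% beside 17.9% of tested genes), 13 for miR-146a-5p (27.1% beside 12.3%) and 7 for miR-148a-3p (14.6% beside 14.8%). Kcnq3 had the most, 4, and Cacna1e, Kcnb2, Kcnh7 and Scn3b had 3 each.

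Of the 6 called genes 4 held matches, and their sites are shown here with the match in capitals and up to 12 bases before and 8 after it (GRCm38, GENCODE M21). Kcnn2 and Scn2b held none in UTRs of 462 and 3766 bases.
Kcnh1, miR-181a-5p, chr1:192509736-192509742, + strand: cccccaccccaaTGAATGTagcctctt
Kcnh1, miR-148a-3p, chr1:192508070-192508076, + strand: actgtcatggcaTGCACTGggctggag
Kcna4, miR-181a-5p, chr2:107297682-107297688, + strand: gacttcatactaTGAATGTttactaat
Kcna4, miR-148a-3p, chr2:107296977-107296983, + strand: tatgcaaacgatTGCACTGcatacagt
Kcnma1, miR-181a-5p, chr14:23299894-23299900, - strand: agaagttgaagaTGAATGTtgactccc
Kcnma1, miR-146a-5p, chr14:23297275-23297281, - strand: ggttgagttctgAGTTCTCtgtaggat
Scn8a, miR-148a-3p, chr15:101041479-101041485, + strand: aggacccagcccTGCACTGttcactgt
Scn8a, miR-148a-3p, chr15:101045629-101045635, + strand: gccattttaaacTGCACTGctccacca
A match is a run of letters and not a measured site of binding.

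In the treated group against APP control the 24 channel genes with a match had a median log2 fold change of -0.00, with 12 above 0. The 24 without one had -0.02, with 11 above 0. By microRNA, the 16 genes with a site for miR-181a-5p had a median of -0.02, with 7 above 0, and the 13 with a site for miR-146a-5p had 0.00, with 7 above 0. The 7 with a site for miR-148a-3p had -0.08, with 1 above 0, and they include Kcnh1, Kcna4 and Scn8a. Over all 2267 tested genes with a site for miR-148a-3p the median was 0.00, with 1139 above 0. For a site of any of the 3, the medians over all tested genes with and without a match were 0.00 and -0.00. These values are a description and were not tested. The microRNAs themselves were not measured by these libraries.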

How the data were processed

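CA1 RNA was sequenced as single-end reads in 19 libraries from mice of 7 months. The authors deposited whole-number counts per gene for each library, and the submitters' processing notes name mm10, FastQC 0.11.5, STAR 2.5.2b and featureCounts of Subread 1.5.1. The annotation release and strand setting are not given in the sources used here. The authors also deposited a normalized log2 table, which was used only in an alternative. It is adjusted along 1 profile whose values match a number from 1 to 5 for each library, and what that number marks is not given.

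Gene names came from GENCODE M21, which held 48349 of the 48709 identifiers. Genes that reached 5 counts in 50% or more of the libraries were tested with DESeq2 1.42.0 (R 4.3.3), as in the study, in 1 fit over 3 groups with Benjamini-Hochberg adjustment and a threshold of 0.05. Normalized counts are counts divided by DESeq2 size factors, intervals are at 95%, and means of log2(normalized count + 1), with a pseudocount of 1, entered the exact permutation test, two-sided (scipy 1.17.1). Alternatives used edgeR 4.0.16 and limma 3.58.1. The fits were tested on simulated data. No 2 libraries of a group agreed within sampling noise, and 0 columns of per-sample values were unmatched. Intervals express the uncertainty of a fitted group difference, estimated from the spread between these libraries.

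Named with full values were the called channel genes, the gene of each family with the highest level in WT control, and channel genes with an unadjusted p under 0.05 between the treated group and APP control. Of the pathway lists, at most 10 called genes were named with values, by smallest adjusted p. The members and the lists were chosen with earlier results of these data known. Some items of the lists are not reported here.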

Additional observations from a re-analysis of the deposited data

Results flagged for a closer look

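In 6 of 144 groups of values (48 channel genes in 3 groups) 1 library stood apart from the rest by Dixon's criterion, which is 4.17%, and chance gives about 1 in 20. In 4 of the 6 the library was WT control replicate 4. It was lowest for Scn4b, with a normalized count of 587.2 against 1204 to 1762 in the others, and for Kcnn1, with 514.2 against 608 to 618. It was highest for Cacna1d, with 2319.5 against 1887 to 1975, and for Cacnb3, with 6084.5 against 4815 to 5233. This library also had the highest summed CA1 markers of all libraries, 37409, and their part in these values was not tested.

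In APP control, Scn8a was highest in replicate 1, with 15640.5 against 13173 to 13996, and Kcnb2 was highest in replicate 6, with 1402.4 against 662 to 859.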

How the results depend on the processing

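The medians of the 48 fold changes kept their direction against WT control in all alternatives, from -0.17 to -0.11 for APP control and from -0.17 to -0.10 for the treated group, while the median between the APP groups stayed between -0.03 and 0.03. The count of called genes, 2 in APP control against WT control, was 1 with edgeR, TMM size factors, no filter on low counts, only the groups compared, independent filtering off, or without both libraries high in choroid plexus genes. That gene was Kcnn2 each time. The count was 6 with the adjustment number as a factor, beside 252 genes called lower in the whole table. It was 5 without both WT control libraries high in glial genes, beside 284, and from 1 to 9 with 1 library left out. The count of 5 in the treated group against WT control became 9 with the adjustment number, 3 without both choroid plexus libraries, and 3 to 8 with 1 library left out. The whole table had 707 genes called lower with the adjustment number and 368 without both choroid plexus libraries. The causes were not tested. Between the APP groups none of the 48 was called in any alternative, and over the whole table at most 3 genes were. With a replicate block the counts were 8 and 17 against WT control and 0 between the APP groups, with Kcnq3 among both (adjusted p = 0.00748 and 0.00154 in DESeq2), Kcna2 (0.0233) among the first and Cacna1e (0.00610), Kcnd2 (0.0311) and Cacna2d1 (0.0294) among the second. Calls rose over the whole table too, with 420 and 974 genes called lower against WT control, beside 202 and 649 in the main fit. Same-numbered libraries correlated from -0.131 to 0.648 in their deviations, not every pair above 0.1, and not every library correlated best with its own number. The labels do not say what a number marks, and the numbers were not taken to pair the samples. Replicates 1, 2 and 4 had the same adjustment number in all 3 groups, however, and libraries with an adjustment number of 1 or 2 had 2.84% to 3.39% mitochondrial counts against 3.76% to 4.87% in the others.

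Among the 25 fold changes given with full statistics, those near 0 in APP control against WT control changed sign, all without a call. Cacna1d was 0.00575 with limma and -0.0543 to 0.0171 with 1 library left out. Cacnb3 was -0.00385 with the replicate block, -0.0198 without the choroid plexus libraries, -0.0491 without the glial libraries, and -0.0383 to 0.0530 with 1 left out. Hcn2 was 0.0149 with the adjustment number, 0.00691 with limma, and -0.0791 to 0.0165 with 1 left out. Kcnab2 was 0.00211 with edgeR, 0.00213 with TMM, 0.000492 with the adjustment number, 0.0266 with limma, and -0.0520 to 0.0420 with 1 left out. Kcnc4 was 0.0122 with the adjustment number, 0.00679 with limma, and -0.150 to 0.0424 with 1 left out. Over the 48 genes in the 3 comparisons the 30 alternatives gave 4320 fold changes, of which 4051 kept direction and call, 38 lost a call, 62 gained one and 169 changed sign, none of the last with a call on either side. Of the 25 given with full statistics, some moved by over 1.5 times with 1 library left out, without a change of sign or a call. In APP control against WT control these were Cacna1e (-0.21 to -0.08), Cacna1h (-0.18 to -0.07), Cacna2d1 (-0.32 to -0.11), Kcnh3 (-0.13 to -0.06) and Kcnb2 (-0.23 to -0.12). Kcnb2 also gained a call, at -0.37, without APP control replicate 6. Between the APP groups Kcnn3 moved in this way (0.11 to 0.23, and 0.11 with the replicate block). Low counts limit Hcn4, with 31 reads in its lowest library.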
